A study of Mus musculus with 23 samples.

Results

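The 10 genes described here are the Period genes Per1, Per2 and Per3, the cryptochromes Cry1 and Cry2, Arntl, the nuclear receptors Nr1d1 and Nr1d2, and the transcription factors Dbp and Tef. They were taken by symbol from a table of 13766 genes of the mouse hippocampus, and all 10 were found and tested. All 10 passed the submitters' limit on low counts in 4 of 4 groups. The rule that names them uses symbols only and no measured value.

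Most cells keep a daily clock that runs as a loop of transcription. ARNTL (also called BMAL1) pairs with CLOCK or NPAS2 and binds E-box sequences in the promoters of the Period and cryptochrome genes, whose proteins then block ARNTL and CLOCK. The nuclear receptors NR1D1 and NR1D2 (REV-ERB alpha and beta) repress Arntl through ROR elements, and DBP and TEF activate genes that hold D-boxes. Many genes of the repressing arm therefore peak at times of day roughly opposite to that of Arntl in most tissues, though not all do. In the hippocampus the clock genes are known to cycle, and Per1 also answers to neuronal activity and to glucocorticoid hormone.

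Hippocampi came from 23 mice of the FCG model (the cross that yields all 4 combinations of sex chromosomes and gonad) on a C57Bl/6J background, at about 12 months of age, each animal giving 1 library. In this cross the testis gene Sry is inherited on an autosome instead of the Y chromosome, so gonad type and sex chromosomes vary separately. Ovaries were present in the groups XXF (XX chromosomes, n = 5) and XYF (XY, n = 6), and testes in XXM (XX, n = 6) and XYM (XY, n = 6). All animals lived under 12 h of light and 12 h of darkness, with lights on at 6 in the morning. The sources used here do not give the time of day at which each animal was killed. Weaned pups were caged by the look of their genitalia, so cage type and gonad cannot be told apart.

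Library totals over the listed genes ran from 10257790 to 36078235 counts, with a median of 21831409. The lowest count of any clock gene in any library was 185, for Cry1. All 12 hippocampal marker genes were measured and none was at 0 in any library. Y-linked genes followed the labels in every library. Xist was at or above 936 CPM (the count scaled to a common library total) in every XX library and at or below 2.86 CPM in 11 XY libraries, while XYF replicate 4 held 94.1 CPM. Choroid plexus genes, which mark a tissue that borders the hippocampus, differed widely between libraries of 1 group, with 8 of 10 measured and summed levels of 74.9 to 1957 CPM in XXF, 130 to 2677 in XXM, 78.0 to 3437 in XYF and 62.2 to 2764 in XYM.

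Promoter sequences are shown because the clock proteins act through short motifs near the start sites of these genes. RefSeq windows of the GRCm38.p6 assembly were matched for 9 of 10 genes, in 12 windows. The 250 bases before each start were searched on both strands for the E-box CACGTG, the D-box TTANGTAA and the ROR element TNGGTCA. Of 32841 windows of the same length, 6.02% held this E-box, 2.06% the D-box and 9.19% the ROR element. E-boxes were found for 3 of the 9 genes (Per1, Tef and Cry1), D-boxes for Per3 and ROR elements for 4 (Per3, Tef, Arntl and Cry2). No match shared a base with a match of another motif. A match is a run of letters and not a measured binding site, and its absence says only that the letters are not in this window. The sequences below run 5′ to 3′ along the gene's strand, leave out bases within annotated exons, and carry the matches in capitals.
Per1, chr11:69098699-69098947, plus strand: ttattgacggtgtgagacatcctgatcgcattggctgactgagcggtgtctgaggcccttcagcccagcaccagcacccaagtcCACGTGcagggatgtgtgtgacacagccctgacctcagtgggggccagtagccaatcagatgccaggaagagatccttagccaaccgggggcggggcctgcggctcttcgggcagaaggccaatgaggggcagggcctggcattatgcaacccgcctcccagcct
Per3, chr4:151044708-151044915, minus strand: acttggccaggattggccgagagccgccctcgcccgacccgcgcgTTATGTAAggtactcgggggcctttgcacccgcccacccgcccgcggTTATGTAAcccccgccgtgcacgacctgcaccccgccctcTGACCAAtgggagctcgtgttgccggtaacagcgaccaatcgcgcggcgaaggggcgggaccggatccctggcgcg
Cry1, chr10:85185065-85185304, minus strand: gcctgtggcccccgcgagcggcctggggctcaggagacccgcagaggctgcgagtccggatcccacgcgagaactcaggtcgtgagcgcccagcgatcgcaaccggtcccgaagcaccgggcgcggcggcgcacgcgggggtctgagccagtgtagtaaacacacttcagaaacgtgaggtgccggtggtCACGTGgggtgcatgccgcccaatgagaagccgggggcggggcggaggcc
Arntl, chr7:113207215-113207464, plus strand: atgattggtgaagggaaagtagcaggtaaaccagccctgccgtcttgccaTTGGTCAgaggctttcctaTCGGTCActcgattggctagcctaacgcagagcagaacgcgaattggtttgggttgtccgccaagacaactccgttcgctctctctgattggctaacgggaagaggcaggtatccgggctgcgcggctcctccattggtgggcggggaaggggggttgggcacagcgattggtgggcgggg
In Per1 the E-box began 166 bases before the start site and in Cry1 60 bases before it. Per3 carried both D-boxes, at 205 and 158 bases, and a ROR element at 118 bases. Arntl carried ROR elements at 200 and 181 bases. The window of Dbp held none of the 3 motifs as spelled here.

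Levels per length of exon set the order of the genes. Tef was highest at 58.7 CPM per kb of exon and Nr1d1 followed at 53.0. Cry2 (24.1), Nr1d2 (21.0), Per1 (13.3) and Dbp (12.0) lay in the middle on the same scale, and Per2 (8.28), Per3 (5.83), Arntl (5.12) and Cry1 (4.88) were lowest. Between neighbours in this order the ranges over the 23 libraries overlapped everywhere but between Nr1d1, whose lowest library was at 44.1 CPM per kb, and Cry2, whose highest was at 26.4.

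The genes also differed in how much they varied between animals. Dbp spanned the widest range, its highest library standing 2.37 times above its lowest. Cry1 spanned 2.03 times, Per3 1.91, Per1 and Per2 1.77 each, Nr1d2 1.74, Arntl 1.54 and Nr1d1 1.40. Tef and Cry2 were the steadiest, at 1.24 and 1.18 times. Set among all 13766 genes by their spread within groups, as SD of log2 CPM, Dbp stood at percentile 83.5, Per1 at 73.8, Per3 at 72.9 and Per2 at 70.8, while Tef stood at 11.8 and Cry2 at 2.88.

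**Figure D1:**
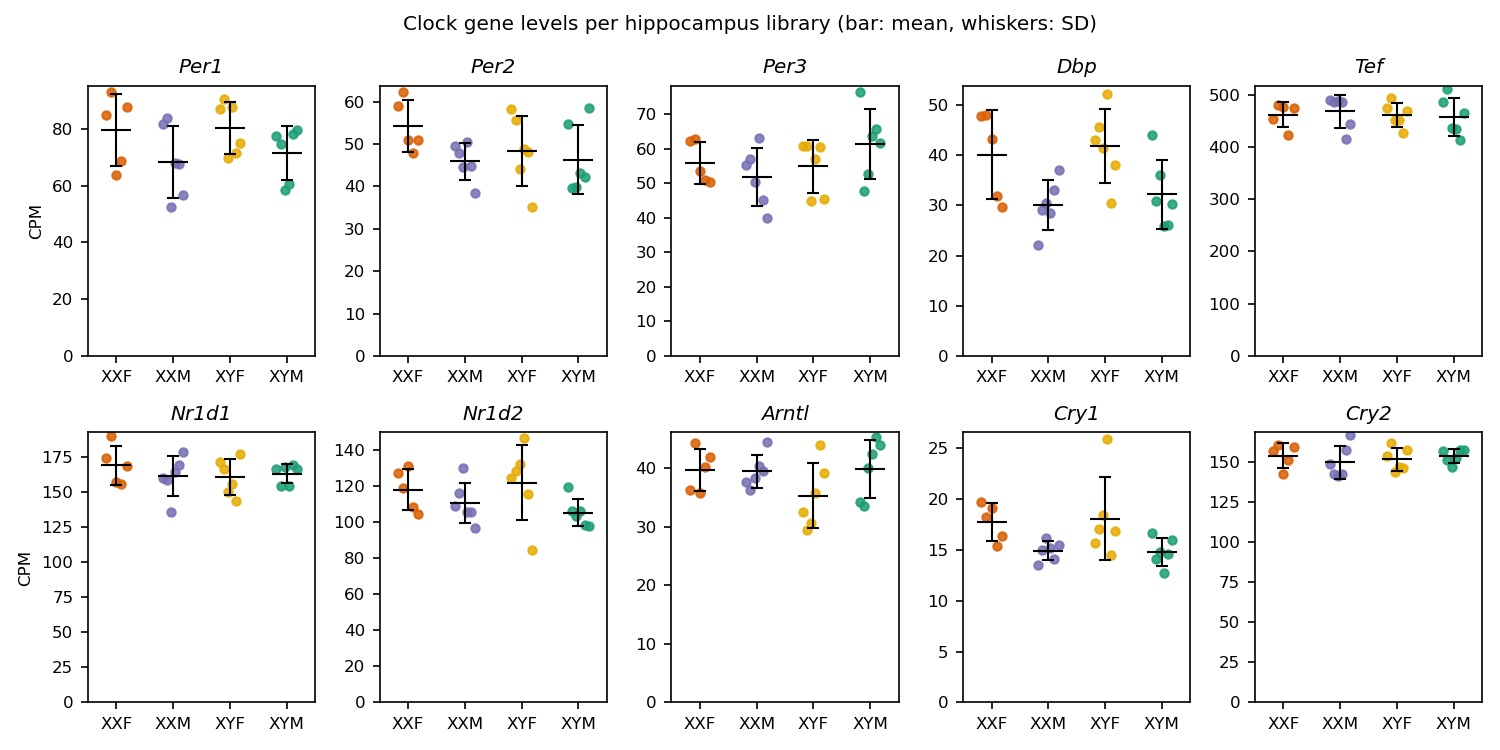
Level of each clock gene in CPM (vertical axis, starting at 0) in every library of the 4 groups (horizontal axis), with a point for each animal, a bar at the group mean and whiskers of 1 SD (n = 5 in XXF, n = 6 in the other groups). In Dbp and Cry1 the XXM and XYM means lie below the XXF and XYF means, the groups overlap for every gene, and the single Cry1 point at 25.9 CPM is XYF replicate 4.

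The first question of the design was whether clock gene levels followed the gonad. Dbp, Cry1, Per1 and Nr1d2 had the lowest levels relative to ovaries in animals with testes, and Dbp differed most, at 0.76 times the level with ovaries. None of the 10 genes passed edgeR's quasi-likelihood test after Benjamini-Hochberg adjustment over all genes, where 0.160% of genes were called. In direction 3 were higher and 7 lower with testes. The median of their log2 fold changes was -0.09, against -0.00 over all genes. At an unadjusted p under 0.05 stood 4 of the 10, all lower, where 13.6% of all genes were below that threshold and 7.14% were below it and lower. With group means removed, Pearson r across libraries was 0.70 for Dbp and Cry1. It was 0.51 for Nr1d2 and Cry1, 0.44 for Dbp and Nr1d2, and 0.02 to 0.12 for Per1 with each of them. The 4 are therefore not all separate results. In bulk tissue, fewer cells of a type and less RNA per cell cannot be told apart.

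Dbp encodes a bZIP activator that is a direct target of the clock, and its gene (13170) lies at chr7:45705247-45710203 on the plus strand. Its level in the XXF libraries was 47.9, 48.1, 43.2, 31.9 and 29.7 CPM. In XYF its lowest, median and highest libraries were at 30.5, 42.2 and 52.3 CPM, in XXM at 22.1, 29.9 and 37.0, and in XYM at 25.8, 30.5 and 44.1. The groups overlapped, because 2 XXF libraries and XYF replicate 5 were as low as the animals with testes and XYM replicate 1 was as high as those with ovaries. Of the testes libraries 3 of 6 with XX and 3 of 6 with XY lay below every ovary library of the same chromosomes, and 6 of 6 and 5 of 6 lay below the ovary median. The log2 fold change with testes was -0.40 ± 0.10 (SE, 95% interval -0.61 to -0.18), with an adjusted p = 0.135 by edgeR. It was -0.42 within XX and -0.37 within XY animals. Dbp ranked 88 of 13766 genes by p. DESeq2 called it, at an adjusted p = 0.0268, in a fit that called 98 genes in all. Leaving out XXF replicate 5 or XYM replicate 1 also brought Dbp past the threshold, with an edgeR adjusted p as low as 0.0377. Those 2 fits called 85 and 49 genes in all, against 22 with every library kept. Leaving out XXF replicate 2 gave the highest adjusted p, 0.271. Its log2 fold change stayed between -0.45 and -0.36 when any 1 library was left out.

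Tef, the related bZIP activator (gene 21685, chr15:81802673-81826863, plus strand), had nearly level group means. Its XXF libraries were at 454, 480, 476, 424 and 474 CPM. The lowest, median and highest libraries were at 416, 486 and 490 CPM in XXM, 428, 460 and 493 in XYF, and 414, 450 and 512 in XYM. These ranges lay on top of one another, and the log2 fold change with testes was 0.01 ± 0.04 (SE) with a 95% interval from -0.08 to 0.09 (edgeR adjusted p = 0.968).

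Cry1 encodes a repressor of the ARNTL and CLOCK pair (gene 12952, chr10:85131700-85185054, minus strand). In XXF its libraries were at 19.7, 18.2, 19.1, 15.4 and 16.3 CPM. Its lowest, median and highest libraries were at 14.5, 16.95 and 25.9 CPM in XYF, 13.5, 15.1 and 16.1 in XXM, and 12.7, 14.6 and 16.7 in XYM. The highest value, 25.9, belonged to XYF replicate 4, the library with the Xist signal, and the next in that group was 18.4. Every testes library lay below the ovary median of its own chromosomes, and 4 of 6 with XX and 2 of 6 with XY lay below all ovary libraries. The log2 fold change was -0.26 ± 0.08 (SE, 95% interval -0.42 to -0.11, edgeR adjusted p = 0.161). Without XYF replicate 4 it was -0.20, the value nearest 0 with any 1 library left out.

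Cry2, the paralogous repressor (gene 12953, chr2:92403647-92434069, minus strand), was nearly level over the groups. Its libraries were at 157, 161, 142, 151 and 159 CPM in XXF. They ran from 141 to 167 CPM in XXM (median 145), 144 to 162 in XYF (median 150.1) and 147 to 158 in XYM (median 155). The log2 fold change with testes was -0.01 ± 0.03 (SE), and its 95% interval, from -0.08 to 0.06, was the narrowest of the 10.

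The Period genes encode the partners of the cryptochromes in the repressor complex. Per1 (gene 18626, chr11:69098956-69109957, plus strand) was at 84.9, 93.0, 63.8, 68.6 and 87.7 CPM in XXF. Its lowest, median and highest libraries were at 69.8, 80.9 and 90.6 CPM in XYF, 52.5, 67.7 and 83.8 in XXM, and 58.4, 76.2 and 79.4 in XYM. All testes libraries lay below the ovary median of their chromosomes, but only 2 of 6 with XX and 2 of 6 with XY were below every ovary library. The log2 fold change was -0.19 ± 0.08 (SE, edgeR adjusted p = 0.319). It was -0.12 with the GC gradient of each library as a covariate, that is, the mean log2 CPM of the 20% of genes richest in G and C minus that of the poorest 20%, a measure added after the values were seen.

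Per2 (gene 18627, chr1:91415982-91459328, minus strand) was at 59.1, 62.3, 51.0, 47.8 and 51.0 CPM in XXF. In XXM its lowest, median and highest libraries were at 38.5, 46.3 and 50.5 CPM, in XYF at 35.1, 48.4 and 58.4, and in XYM at 39.6, 42.6 and 58.4. The XX testes libraries were low relative to XX ovaries, 4 of 6 below all of them, whereas 0 of 6 were so within XY. The averaged log2 fold change was -0.15 ± 0.08 (SE, edgeR adjusted p = 0.419).

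Per3 (gene 18628, chr4:151003655-151044622, minus strand) held 62.3, 62.8, 53.5, 51.0 and 50.3 CPM in XXF. Its lowest, median and highest libraries were at 39.9, 52.8 and 63.2 CPM in XXM, 45.01, 58.8 and 60.9 in XYF, and 47.7, 62.8 and 76.4 in XYM. XYM held its highest levels, with 4 of 6 libraries above every XYF library. The log2 difference with testes was -0.11 within XX and 0.16 within XY animals, and the test of that difference did not pass (interaction 0.27 ± 0.16 SE, edgeR adjusted p = 0.999).

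Nr1d1 and Nr1d2 encode the receptors that repress Arntl. Nr1d1 (gene 217166, chr11:98767935-98775242, minus strand) was at 174, 189, 157, 155 and 168 CPM in XXF, with ranges of 136 to 178 in XXM, 144 to 177 in XYF and 154 to 169 in XYM. Its log2 fold change with testes was -0.02 ± 0.05 (SE, 95% interval -0.12 to 0.07). The Nr1d2 gene (353187, chr14:18204056-18239106, minus strand) was at 127, 119, 131, 108 and 104 CPM in XXF. Its lowest, median and highest libraries were at 84.3, 126 and 146 CPM in XYF, 96.8, 107 and 130 in XXM, and 97.9, 105 and 119 in XYM. XYF was the most scattered group, since XYF replicate 6 was the lowest and XYF replicate 4 the highest of all 23 libraries. The log2 fold change of Nr1d2 was -0.15 ± 0.07 (SE, edgeR adjusted p = 0.330). With the GC covariate it was -0.23 (edgeR adjusted p = 0.130), and limma with sample quality weights gave -0.17 and an adjusted p of 0.0904, the lowest of its alternatives.

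Arntl, the activator that these receptors repress (gene 11865, chr7:113207465-113314126, plus strand), was at 36.2, 44.3, 35.9, 40.1 and 41.9 CPM in XXF. Its lowest, median and highest libraries were at 29.5, 34.1 and 44.1 CPM in XYF, 36.3, 38.9 and 44.4 in XXM, and 33.5, 41.3 and 45.3 in XYM. It was the gene with the largest positive value for the gonad, 0.09 ± 0.07 (SE, edgeR adjusted p = 0.581), and its groups overlapped throughout.

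**Figure D2:**
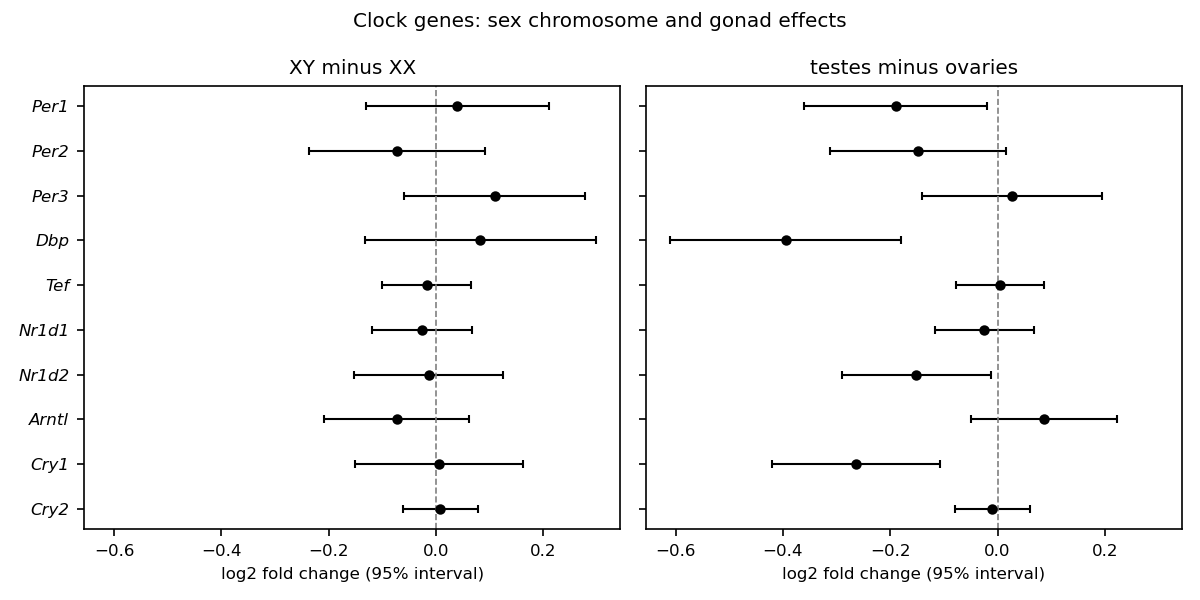
Log2 fold changes of the 10 clock genes (vertical axis) for XY minus XX at the left and testes minus ovaries at the right, with points at the edgeR estimate and whiskers of the 95% interval (horizontal axis, log2). Dbp, Cry1, Per1 and Nr1d2 are the genes whose interval for the gonad lies below 0, at -0.40, -0.26, -0.19 and -0.15, and all 10 intervals for the sex chromosomes span 0.

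The second question was whether the levels followed the sex chromosomes. No clock gene passed the test between XX and XY animals averaged over the gonads. The largest difference was that of Per3, at 1.08 times the XX level in XY. By edgeR with adjustment over all genes 0 of 10 were called, where 0.283% of genes were, and 0 of 10 stood at an unadjusted p under 0.05, where 6.78% of genes did. Directions were split, 5 higher and 5 lower in XY, and the median was -0.00 (log2). Per3 was at 0.11 ± 0.08 (SE), Dbp at 0.08 ± 0.10, Per2 at -0.07 ± 0.08 and Arntl at -0.07 ± 0.07. The other 6 lay between -0.03 and 0.04. Intervals were widest for Dbp, from -0.13 to 0.30, and narrowest for Cry2, from -0.06 to 0.08, and adjusted p ran from 0.884 to 0.996. DESeq2 also called 0 of the 10 genes in this comparison.

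Whether the gonad difference depended on the sex chromosomes was tested as an interaction. No clock gene was called and 0 stood at an unadjusted p under 0.05, where 0% of all genes were called by edgeR, 3.23% stood under the unadjusted threshold and DESeq2 called 0 genes. The estimate for Dbp was 0.04 with a 95% interval from -0.39 to 0.47, and that for Cry1 was -0.03, from -0.34 to 0.29. The other members ran from -0.11 for Nr1d2 to 0.27 for Per3. Between single groups no clock gene was called either, against 0.291% of genes for XYF and XXF, 0.116% for XYM and XXM, 0% for XXM and XXF, 0.225% for XYM and XYF, 0.131% for XYM and XXF, and 0.501% for XXM and XYF. The widest gap of Dbp was between XXM and XYF, at a log2 difference of -0.48 ± 0.14 (SE, edgeR adjusted p = 0.241). These comparisons share groups and are not independent of one another.

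A further 26 genes of the clock pathway were listed, of which 22 were measured and tested; Bhlhe41, Ciart, Avp and Cipc are not analysed here. By edgeR 0 of 22 were called for the gonad and 0 of 22 for the sex chromosomes. For the gonad 13 were higher and 9 lower, and the median was 0.01 (log2). Under an unadjusted p of 0.05 were 4, or 18.2%, near the 13.6% of all genes. These 4 were named after their values were seen. Fbxl21, a cryptochrome ligase subunit, was at 0.27 (adjusted p = 0.249), Tipin, a partner of Timeless, at 0.20 (adjusted p = 0.272) and Clock, the partner of ARNTL, at 0.11 (adjusted p = 0.332). Bhlhe40, a repressor that binds E-boxes, was at -0.13 (adjusted p = 0.331). Hlf, the third PAR bZIP activator beside Dbp and Tef, was at -0.09 ± 0.06 (SE) for the gonad and -0.12 ± 0.06 for the sex chromosomes. For the sex chromosomes 2 of 22, or 9.09%, stood under an unadjusted p of 0.05, near the 6.78% of all genes. They were Npas2, which can stand in for Clock, at -0.19 in XY against XX, and the PER kinase gene Csnk1e at -0.11. Their edgeR adjusted p were 0.632 and 0.603.

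Gene lists for hormone response, activity and neighbouring tissue were read in the same gonad comparison. Of 8 glucocorticoid-responsive genes 7 were lower with testes, 5 at an unadjusted p under 0.05. Over all genes 13.6% stood under that threshold, and 7.14% did so and were lower. The median of the 8 was -0.29 (log2) and edgeR called 0 of them. Their summed level ran from 324 to 413 CPM in XXF, 308 to 496 in XYF, 302 to 352 in XXM and 311 to 428 in XYM. Of 9 measured immediate early genes, which answer to neuronal activity, 8 were lower with a median of -0.24. Under the unadjusted threshold stood 1 of the 9, or 11.1%, and 0 were called. Of the choroid plexus genes 8 of 8 were higher with testes within XX (median 1.66) and 8 of 8 lower within XY (median -0.31), which averaged to 0.67. In these comparisons and in the interaction 0 of 8 were called, and 0 reached an unadjusted p under 0.05. These genes mark 1 tissue and varied widely within groups, so the 8 are not separate results. Of 6 microglia markers 4 were lower and 2 higher, with a median of -0.08. Under the unadjusted threshold stood 3, all lower, C1qa lowest at -0.28. Within XX 2 of the 6 were lower and 0 stood under that threshold, and within XY 5 were lower and 3 stood under it. Of 12 hippocampal markers 8 were higher and 4 lower, with a median of 0.03. The 5 under the threshold were all higher (Prox1, Dsp, Tdo2, Lct and Zbtb20, at 0.20 to 0.36). In both lists 0 were called. The part of these lists in the values of Dbp, Cry1, Per1 and Nr1d2 was not tested.

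The relations among the genes across animals were taken from log2 CPM with each group's mean removed, so that differences between groups do not enter. All p come from 100000 shuffles of libraries within groups, are 2-sided and were adjusted over the 45 gene pairs. Of these pairs 32 had a positive and 13 a negative Pearson r. An unadjusted p under 0.05 was reached by 11 and an adjusted one by 4, all positive. Since the hour of collection is not given, an r gives the sign with which 2 genes moved across animals and not a phase.

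Per2 and Per3 were the most closely related pair. Their r over the 23 libraries was 0.78 (permutation p = 4e-05, adjusted p = 0.00180) and Spearman's rho was 0.81 (permutation adjusted p = 0.000900). It was 0.94 within XXM, 0.84 within XYF and 0.64 within XYM, and 0.75 without the 2 libraries farthest from the median of Per2. The pair kept an adjusted p under 0.05 in 23 of 23 runs that left out 1 library. Of all genes 0.196% had an r of that size or larger, of either sign, with Per2, and 0.821% with Per3.

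Per1 moved with Per2 as well, at r = 0.58 (permutation p = 0.00327, adjusted p = 0.0368) and rho = 0.60 (permutation adjusted p = 0.0244). This value lost its call in 10 of 23 runs with 1 library left out (XXF replicates 1, 2 and 4, XXM 1, 2 and 6, XYF 1 and 2, XYM 3 and 6), with an adjusted p of at most 0.0720 and an r between 0.54 and 0.62. Without the 2 farthest libraries r was 0.56. Per1 and Per3 had an r of 0.49, which did not pass (permutation p = 0.0305, adjusted p = 0.196).

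Dbp and Cry1, the genes with the lowest values for the gonad, also varied together within groups. Their r was 0.70 (permutation p = 0.000370, adjusted p = 0.00832) and rho was 0.71 (permutation adjusted p = 0.0123). Within groups r was 0.59 in XXM, 0.79 in XYF and 0.73 in XYM, and it was 0.71 without the 2 libraries farthest from the median of Dbp. Without XYF replicate 4, the library highest for both genes before group means were removed, it was 0.74. The call held in 23 of 23 runs. An r as large as that of the pair was held by 0.341% of genes with Dbp and by 0.523% with Cry1. By contrast Dbp and Tef, both bZIP activators, had an r of 0.18 (permutation adjusted p = 0.699), and Dbp and Per3 an r of 0.07. The groups did not share a sign here. Dbp and Tef were at -0.65 in XXM, 0.54 in XYF and 0.49 in XYM, and Dbp and Per3 at -0.70, 0.07 and 0.23.

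Nr1d1 and Cry2 had an r of 0.74 (permutation p = 0.00108, adjusted p = 0.0162) and a rho of 0.77 (permutation adjusted p = 0.00967). It was 0.75 within XXM, 0.83 within XYF and 0.33 within XYM, and 0.73 without the 2 farthest libraries. An r as large as that of the pair was held by 0.952% of genes with Nr1d1 and by 0.465% with Cry2. Leaving out XXM replicate 6 gave an adjusted p of 0.0507. Both genes also followed the GC gradient of the libraries. The r with this gradient was 0.79 for Nr1d1 (permutation adjusted p = 1e-04 over 10 genes), 0.65 for Cry2 (0.00430) and -0.68 for Nr1d2 (0.0145, and -0.27 without the 2 farthest libraries). The other 7 genes did not pass by r, Per1 coming nearest at 0.48 (0.0639), though its rho of 0.51 did (permutation adjusted p = 0.0453). By GC content Nr1d1 stood at percentile 85.7, Cry2 at 80.2 and Per1 at 94.1, and Nr1d2 stood at 11.4. These genes belong to the rich and poor sets that define the gradient, so their r with it is not an independent test. Dbp, at percentile 98.0, was also in the rich set and had an r of 0.03. How many of all genes follow the gradient was not tested. With the gradient removed, the r of Nr1d1 and Cry2 was 0.48 (permutation adjusted p = 0.102).

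Removing the gradient also brought other pairs past the threshold, 9 in all. Nr1d2 then had an r of 0.75 with Per2, 0.66 with Per3, 0.64 with Cry1, 0.63 with Dbp and 0.57 with Per1 (permutation adjusted p from 0.00525 to 0.0310). Tef and Arntl passed at -0.58 (permutation adjusted p = 0.0338). The pairs Per2 and Per3 (0.78), Dbp and Cry1 (0.70) and Per1 and Per2 (0.61) passed as they had before. Nr1d2, with a GC content of 41.8%, was the gene poorest in G and C of the 10, and Dbp, at 61.6%, the richest.

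None of the 13 negative pairs passed with group means alone removed, and the most negative were those of Arntl with Nr1d2 and Tef. Nr1d2 and Arntl had an r of -0.57 (permutation p = 0.0143, adjusted p = 0.107) and a rho of -0.65, whose own adjusted permutation p was 0.0160. Without the 2 farthest libraries r was -0.66, and it was -0.72 in XXM, -0.49 in XYF and -0.77 in XYM. An r as large as that of the pair, of either sign, was held by 10.4% of genes with Nr1d2 and by 1.82% with Arntl. The pair passed with library size also removed (-0.61, permutation adjusted p = 0.0422) and without centring on groups (-0.59, 0.0210), and stood at -0.46 (0.181) with the GC gradient removed. Tef and Arntl had an r of -0.56 (permutation p = 0.00850, adjusted p = 0.0765), and Dbp and Arntl one of -0.38. Within groups Dbp and Arntl were at 0.65 in XXM, -0.68 in XYF and -0.66 in XYM. Nr1d1, the other receptor, had an r of 0.17 with Arntl. Nr1d1 and Nr1d2 stood at -0.46 (permutation adjusted p = 0.204), and at 0.17 with the GC gradient removed. Nr1d2 and Cry2 stood at -0.46 and, with the gradient removed, at -0.03. Arntl had a negative r with 7 of the other 9 genes, the exceptions being Nr1d1 and Cry2 (0.23). With the GC gradient removed those were at -0.22 and -0.02.

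**Figure D3:**
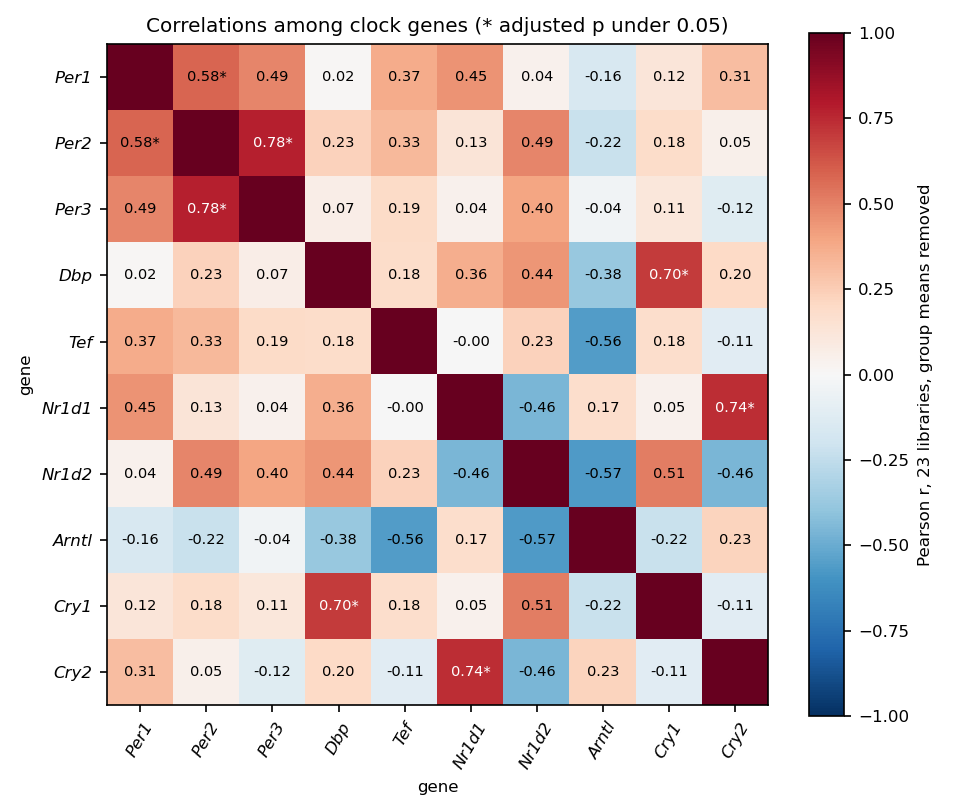
Pearson r of each pair of the 10 clock genes over 23 libraries with group means removed, red for positive and blue for negative values (colour bar from -1 to 1), a star marking an adjusted permutation p under 0.05. The starred pairs are Per2 and Per3 (0.78), Nr1d1 and Cry2 (0.74), Dbp and Cry1 (0.70) and Per1 and Per2 (0.58), and the row of Arntl is mostly blue.

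**Figure D4:**
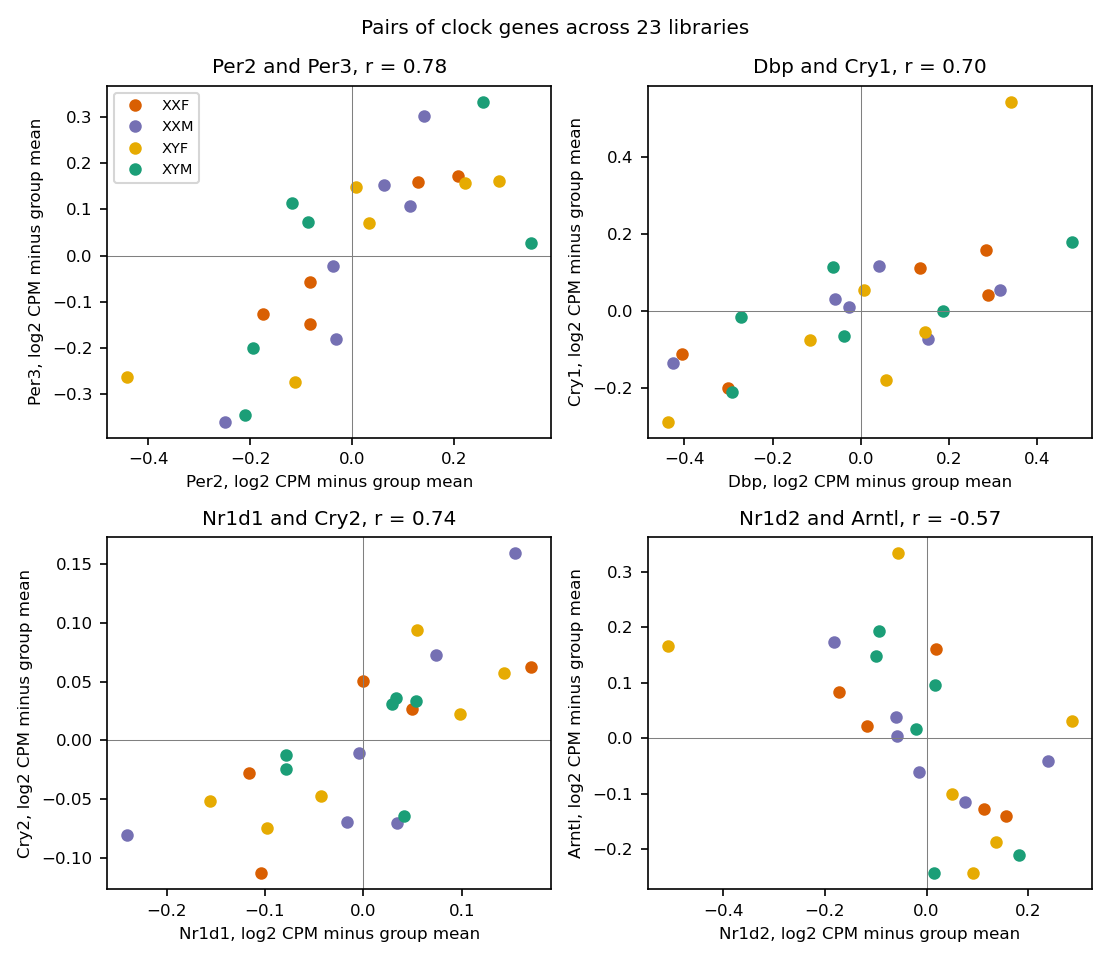
Log2 CPM minus group mean of 1 gene against another for 4 pairs, with a point for each of the 23 libraries coloured by group. Per2 and Per3 and Dbp and Cry1 rise together with all 4 groups spread along the trend. Nr1d1 and Cry2 also rise together, but the XYM libraries lie close to the centre, with an r of 0.33 within that group. For Nr1d2 and Arntl r is -0.57, which did not pass adjustment.

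Over all 10 genes the first principal component of these centred values held 32.6% of the variance and the second 23.99%. On the first, Nr1d2 (loading 0.43), Per2 (0.42), Per3 (0.34), Cry1 (0.33), Tef (0.32), Dbp (0.32) and Per1 (0.27) lay on 1 side and Arntl (-0.35) on the other. Nr1d1 (0.59) and Cry2 (0.55) led the second. XYF replicate 6 and XYM replicate 1 stood at the opposite ends of the first component, each group having libraries on both sides.

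Each gene was also set against the mean log2 CPM of 11 other gene lists and against library size, 120 relations in all with group means removed. The relation of Dbp with the cold-responsive pair Cirbp and Rbm3, which encode RNA-binding proteins induced by mild cooling, was the highest, at r = 0.84 and rho = 0.88 (permutation p = 1e-05, the smallest these shuffles can give, adjusted p = 0.00120). It was 0.95 in XXM, 0.88 in XYF and 0.72 in XYM, 0.79 without the 2 farthest libraries, and passed in 23 of 23 runs with 1 library left out. These lists were chosen with earlier results of these data known, so their p are not independent tests. Among all genes with a mean of at least 1 CPM, Cirbp ranked 1 and Rbm3 ranked 3 by r with Dbp. Adjusted over all those genes, the permutation p of each was 0.0646, in a test where the number of shuffles keeps 1 gene alone from passing. The Cirbp level ran 70.9, 60.8, 50.8, 45.9 and 41.4 CPM in XXF, where Dbp was also highest in replicates 1 and 2 and lowest in replicate 5. In neither gene did the gonad comparison reach an unadjusted p under 0.05, at -0.13 for Cirbp and -0.09 for Rbm3.

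Cry1 had an r of 0.71 with the same pair (rho 0.73, permutation adjusted p = 0.0288, 0.66 without the 2 farthest libraries). The call was lost without XXF replicate 1, XXM 1, XYF 4, 5 or 6, or XYM 1, with an adjusted p of at most 0.128. Arntl had an r of -0.77 with the glucocorticoid-responsive genes (rho -0.72, permutation adjusted p = 0.0288, -0.80 without the 2 farthest libraries). That call was lost without XXF replicate 1, XXM 1 or 6, XYF 5 or 6, or XYM 1, 2 or 6, with an adjusted p of at most 0.0981, while r stayed between -0.83 and -0.72. Nr1d2 had a positive r with those genes, 0.63 (permutation adjusted p = 0.0638), and one of 0.64 with Cirbp and Rbm3 (permutation adjusted p = 0.0672). Per1 had an r of -0.61 with the astrocyte markers (permutation adjusted p = 0.0638, -0.46 without the 2 farthest libraries) and of 0.64 with the immediate early genes (permutation adjusted p = 0.0701). These last 4 values did not pass. With library size the r of the genes lay between -0.22 for Cry1 and 0.21 for Per3, and with the choroid plexus genes between -0.25 for Nr1d1 and 0.44 for Per3, and none of them passed. For Dbp the r with the choroid plexus genes was 0.09, but 0.94 within XYM, -0.59 within XYF and -0.44 within XXM. XYM replicate 1 was highest in its group for both, and XYF replicate 5 was lowest for Dbp and highest for the choroid plexus genes. The part of this tissue in the Dbp values was not tested.

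**Figure D5:**
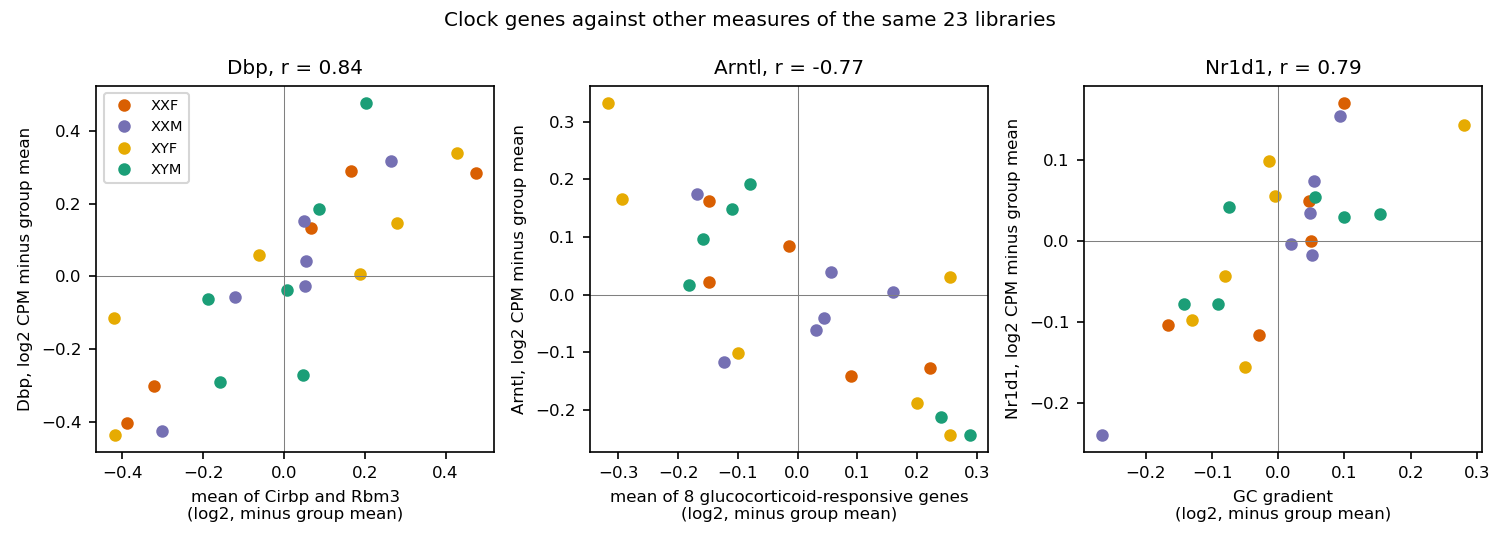
Log2 CPM minus group mean of Dbp, Arntl and Nr1d1 (vertical axes) against the mean of Cirbp and Rbm3, the mean of 8 glucocorticoid-responsive genes and the GC gradient of the library (horizontal axes, log2, group means removed), with a point for each of 23 libraries coloured by group. Dbp rises with Cirbp and Rbm3 (r = 0.84) and Arntl falls as the glucocorticoid-responsive genes rise (r = -0.77). Nr1d1 rises with the GC gradient (r = 0.79), and is itself in the set of GC-rich genes that enters this gradient.

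Of 13735 genes with a mean of at least 1 CPM, those with the pattern most like that of Dbp were ranked by Pearson r over the 23 centred libraries. Cirbp was first (0.84), followed by Slc41a3 (0.77), Rbm3 (0.77), Crip1 (0.76), Uap1l1 (0.76), Slc2a1 (0.75), Fmo2 (0.74), Rps6ka4 (0.74), Pigx (0.73) and Xdh (0.73). Cry1 was rank 19, and no other clock gene had an r above 0.5 with Dbp, where 2.37% of all genes did. At the other end were Sh3rf3 (-0.80), Rimbp2 (-0.79), Smarcal1 (-0.79), 1500004A13Rik (-0.77) and Nmt2 (-0.77). None of these relations passed adjustment over all genes. The smallest p that 100000 shuffles can give is 1e-05. Over 13735 genes that p cannot bring 1 gene alone past the threshold, however large its r, so the lack of a call is not evidence against these relations.

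Some of the genes share exon bases with a gene on the opposite strand, and the sources used here do not say whether the counting used strand. In the GENCODE annotation of GRCm38, exons of Nr1d1 overlap those of Thra over 263 bases, Dbp those of Sphk2 over 539, Cry2 those of D930015M05Rik over 295, Tef those of Gm17597 over 193 and Arntl those of Gm45355 over 33. The last 2 partners are not analysed here. Reads of such partners may have been counted together. Across libraries Nr1d1 and Thra had an r of 0.69 (rho 0.61, permutation adjusted p = 0.00861 over 3 partners), whereas Dbp had an r of -0.05 with Sphk2 and Cry2 one of -0.03 with D930015M05Rik. Nr1d1 also had an r of 0.79 with the GC gradient, and its r with Thra was not taken with that gradient removed. The part of shared reads in the r of Nr1d1 and Thra was not tested.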

How the data were processed

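Hippocampal total RNA of 23 mice was depleted of ribosomal RNA and made into strand-specific libraries, per the labels' protocols. The authors' deposited table gave estimated counts per gene, which need not be whole, and a normalized log2 value per gene made from them with DESeq, per the submitters' processing notes, which also name mm10. Per the file headers, genes needed a raw value of 20 or more in 100% of samples of 1 of the 4 conditions. The sources used here name neither the aligner nor the counter, nor its use of strand. The deposited log2 values served for 1 alternative test.

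The counts were rounded and fitted over all 13766 genes in R 4.3.3 with edgeR 4.0.16 (TMM factors, a mean per group, glmQLFit and glmQLFTest). The filterByExpr filter removed no gene. Calls required a p under 0.05 after Benjamini-Hochberg adjustment. The SE is the size of the log2 fold change divided by the root of F, and is approximate. Groups came from the labels for sex chromosome and gonad, and replicate numbers follow accession order and only name libraries. CPM used TMM-scaled totals, and log2 CPM a prior count of 2. Correlations used Python 3.11.15. Levels per kb used GENCODE exon lengths, and GC content came from GENCODE transcripts for 94.1% of genes. Alternatives were DESeq2 1.42.0, limma 3.58.1 (voom, sample quality weights, and the deposited log2 values), a mean count of at least 100, total scaling, a GC covariate and leaving out each library. Steps were tested on simulated counts.

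The 10 genes and all lists were chosen with earlier results of these data known. The text names all 10, the other clock pathway genes with the smallest p in each direction, and the 10 genes most and 5 least like Dbp. Counts limit precision to the spread between animals: the lowest clock gene count was 185.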

Additional observations from a re-analysis of the deposited data

Results flagged for a closer look

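In Cry1, 1 library stood apart from its group. XYF replicate 4 was at 25.9 CPM, the next library of that group was at 18.4 CPM, and the gap was 0.657 of the group's whole range, above the 95% critical value of 0.625 for 6 samples. This was 1 of 40 sets of group values examined, where chance alone gives about 1 in 20. The same library carried the Xist signal of 94.1 CPM in an XY animal, and was the highest of the 23 for Dbp (52.3 CPM) and Nr1d2 (146 CPM). The part of that signal in the Cry1 value was not tested. Without this library the log2 fold change of Cry1 with testes was -0.20 instead of -0.26.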

How the results depend on the processing

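No paired analysis was possible because the replicate numbers follow accession order and the labels name no shared litter or day. Of 270 alternative values of the log2 fold changes, 259 kept direction and side of the threshold, and of 690 with 1 library left out 653 did. DESeq2 called 1 clock gene for the gonad (Dbp), and the number ran from 0 to 1 with 1 library left out. Over all genes the gonad calls were 22 by edgeR, 98 by DESeq2 and 76 with quality weights. They were 85 without XXF replicate 5 and 49 without XYM replicate 1, the runs that called Dbp. Values near 0 turned sign and passed no threshold. For the sex chromosomes Nr1d1 was at 0.0031 with the GC covariate, Nr1d2 at 0.030 with quality weights, and Cry1 at -0.0049 with voom and -0.0055 on the deposited log2 values. For the gonad the GC covariate gave 0.036 for Nr1d1 and 0.023 for Cry2. For the interaction Per1 was at -0.078 with quality weights and -0.026 with the GC covariate, Dbp at -0.100 with quality weights and Cry1 at 0.014 with voom. Leaving out 1 library gave, for the sex chromosomes, -0.043 to 0.030 for Nr1d2, -0.056 to 0.032 for Cry1 and -0.0054 to 0.026 for Cry2. For the gonad it gave -0.0099 to 0.059 for Per3, -0.012 to 0.021 for Tef and -0.026 to 0.00011 for Cry2. For the interaction it gave -0.019 to 0.124 for Per1, -0.070 to 0.133 for Dbp and -0.078 to 0.098 for Cry1. The 4 gene pairs that passed became 7 without centring on groups and 9 with the GC gradient removed (a setting added with the values in view), and 5 both by rho and with library size removed, where Nr1d2 and Arntl joined. They were 2 (without XXM replicate 6) in number at fewest and 7 (without XYF replicate 6) at most with 1 library left out. The 3 relations with other lists, whose alternatives were added in the same way, became 5 without TMM factors and 5 with the GC gradient removed, and 1 to 5 with 1 library left out. The cause of these changes was not tested. Depth was at least 185 counts for each clock gene in each library, and precision is set by 5 or 6 animals per group.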
